A study of Danio rerio with 25 samples.

Results

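Skin of male zebrafish (Danio rerio) at 24 months of age was compared with skin at 12 months by counting microRNA reads in 5 small-RNA libraries of each age. These 10 libraries, of 25 in a series that also covers 6, 36 and 42 months, were chosen by their age label. The 24-month fish carried the strain label AB JxTü, without a transgene. The 12-month fish carried AB JxTü Tg(flk:mCherry), in which the flk promoter drives a red reporter in vascular endothelium. Every difference between these ages is therefore also a difference between strain labels, and age and transgene cannot be told apart. Libraries of 6 months carry the same label as those of 24 months, so their levels are set beside the comparison where they bear on it. The 36-month fish carried Tg(pu.1:GFP) and the 42-month fish Tg(wt1a:GFP). Whether each library is a separate fish is not stated by the labels. The p-values therefore set a difference against the spread between libraries, which the main edgeR fit estimates over all 25. Replicate numbers follow the order of the records and carry no meaning.

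MicroRNAs are short RNAs cut from hairpin precursors, and each pairs through a short seed near its beginning with many messenger RNAs, whose translation and stability it lowers. In skin, miR-203 and miR-205 are typical of keratinocytes and restrain or sustain their growth, and members of the miR-200 family maintain the epithelial state. A piece of skin also holds vessels, blood, nerve endings, pigment cells and traces of muscle, each with microRNAs of its own. In such bulk samples, fewer cells of a type and less RNA per cell cannot be told apart.

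The libraries held 1941763 to 4263353 hairpin counts at 24 months and 2199520 to 5206505 at 12 months, and the means did not differ past the threshold (exact permutation test, two-sided p = 0.683, n = 5 each). The smallest p that this design allows is 0.00794. Between 253 and 257 hairpins reached 10 counts at 24 months, and between 250 and 264 at 12 months (exact permutation p = 0.714). A microRNA encoded by several hairpin copies is given below as 1 name with its copies summed, since reads of a mature sequence that copies share cannot be assigned to 1 of them. If a read was counted at every copy it matches, such a sum holds it more than once. Levels are given as CPM, counts relative to the library total after scaling by TMM, a factor that aligns the bulk of microRNAs between libraries. Differences are on the log2 scale, 24 minus 12 months, so that a positive value means a higher level at 24 months.

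The epidermal markers were abundant in all 10 libraries. MiR-205 was at 29863, 63365, 35773, 51390.2 and 107967 CPM in the 5 libraries of 24 months and at 108206, 61335, 48758, 41302 and 66022 CPM in the 5 of 12 months. MiR-203b was at 12470.1, 25431, 21096, 15819 and 26327 CPM at 24 months and at 23174, 24732, 26163, 16147 and 24173 CPM at 12 months. The ranges of the 2 ages overlapped for both, and neither difference passed the test, with -0.18 ± 0.39 for miR-205 and -0.18 ± 0.19 for miR-203b (SE, edgeR adjusted p = 0.875 and 0.72).

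One library of 24 months, replicate 3, stood apart from the other 9. In it 10 of 190 tested names were at least 2-fold above the highest of the others, against 0 names in each of the other 9 libraries. Of these 10 names, miR-122, miR-192, miR-194a, miR-216a, miR-216b and miR-217 are known from liver, gut or pancreas. The other 4, outside the liver and gut list described below, were miR-459, miR-363, miR-146a and miR-101b. The library also had the smallest total of the 10, and many of the results that rest on it are given with and without it.

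No microRNA differed between 24 and 12 months past the test. EdgeR called 0 of 258 hairpins (0%) at an adjusted p under 0.05, with 45 at an unadjusted p under 0.05, of which 18 were higher and 27 lower at 24 months. With copies summed it called 0 of 190 names (0%), with 27 at an unadjusted p under 0.05. Limma-voom called 0 hairpins and 0 names, and DESeq2 called 0 hairpins and 2 names, miR-122 and miR-16c (adjusted p = 0.0476 for both). Without 24 months replicate 3, edgeR called 0 names, with 17 at an unadjusted p under 0.05. In the same edgeR fit, 24 against 6 months gave 45 of 190 names (23.7%) and 12 against 6 months gave 3 names (1.58%). For hairpins the counts were 65 of 258 (25.2%) for 24 against 6 months and 10 (3.88%) for 12 against 6 months. These comparisons share libraries with each other. The labels of 12 and 6 months differ by the transgene, while those of 24 and 6 months are the same. Names called at 24 against 6 months include miR-122, miR-192, miR-194a, miR-459 and miR-101b (edgeR adjusted p = 0.0303, 0.0236, 0.0236, 0.0236 and 0.00516). All of these were high in 24 months replicate 3, and the counts against 6 months were not taken without that library. For miR-101b the other libraries of 24 months, at 195.1 to 239.6 CPM, also lay above those of 6 months, at 115.5 to 177.6 CPM. Other names called there, such as miR-16c, miR-31, miR-132 and miR-462, are given below.

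For most microRNAs the estimate was small and its interval excluded a 2-fold difference. The median difference over the 190 names was 0.00 and the median SE 0.22, and 164 names differed by less than 0.5 in either direction. Of the 190 names, 96 had a positive estimate and 94 a negative one. For all but 49 names the 95% interval lay within 2-fold in either direction, that is between -1 and 1. It lay within 0.5 in either direction for only 50 names. For those 49 names a 2-fold difference could not be bounded with 5 libraries per age. Only 12 names had an estimate beyond 2-fold, 8 higher and 4 lower at 24 months. Of the 8 higher ones 5 were liver and gut names, and the others were miR-459, miR-2185 and miR-7145, while all 4 lower ones were neural names.

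**Figure D1:**
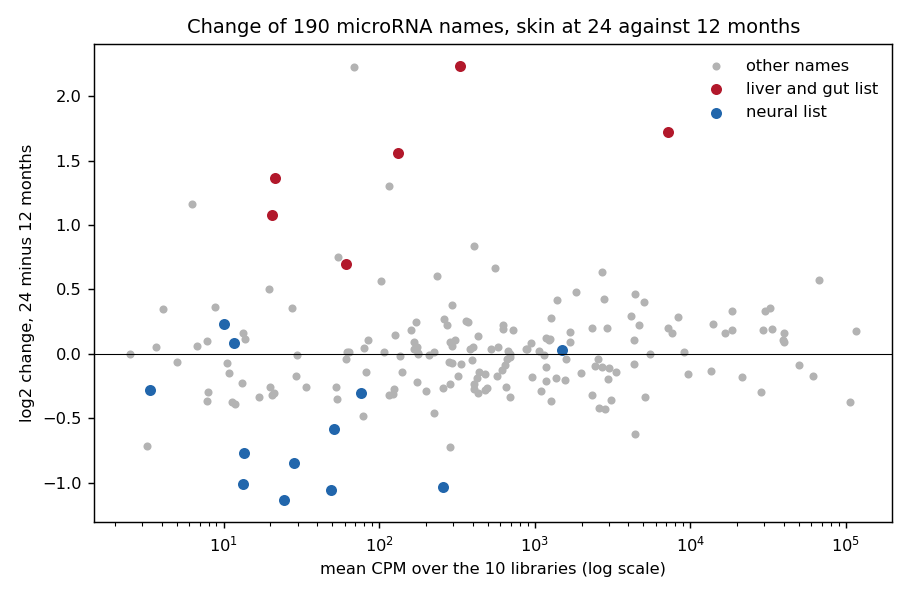
Each point is 1 of 190 microRNA names, with its mean CPM over the 10 libraries on the log x axis and its log2 difference, 24 minus 12 months, on the y axis. Liver and gut names (red) lie between 0.69 and 2.24, and most neural names (blue) lie below 0. Without 24 months replicate 3, which is not drawn, the liver and gut names ran from -0.18 (miR-216b) to 1.09 (miR-122).

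Of the 6 names with the smallest p on the higher side, 3 were of the liver and gut list and another 2 were high in the same single library. MiR-122, the main microRNA of hepatocytes, was at 133.3, 143.6, 1746, 258 and 457.3 CPM at 24 months, against 202, 36.7, 34.9, 113 and 194.7 CPM at 12 months. The value of replicate 3 was far above the rest, while the lowest libraries of 24 months lay within the 12-month range. Its difference was 2.24 ± 0.74 (SE, adjusted p = 0.259), and 1.09 ± 0.64 without replicate 3 (adjusted p = 0.625).

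MiR-192 and miR-194a, neighbours in the genome and known from intestine and liver, showed the same library apart. MiR-192 was at 5118, 2372, 36401, 4539.8 and 6602 CPM at 24 months and at 4286, 3079, 1680.2, 3215 and 4417 CPM at 12 months. MiR-194a was at 86.0, 36.7, 626, 96.5 and 143.5 CPM at 24 months and at 78.4, 65.6, 36.8, 62.1 and 90.4 CPM at 12 months. In both, replicate 3 of 24 months was the highest and replicate 5 the second highest of the 10 libraries, and replicate 2 of 24 months lay within or at the edge of the 12-month range. The differences were 1.72 ± 0.64 for miR-192 and 1.56 ± 0.58 for miR-194a (adjusted p = 0.259 and 0.259). Without replicate 3 they were 0.48 and 0.44 (adjusted p = 0.766 for both).

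MiR-216a, miR-216b and miR-217, neighbours in the genome and known from the acinar pancreas, were high in that 1 library too. MiR-217 was at 13.7, 10.8, 112, 11.9 and 6.52 CPM at 24 months and at 12.4, 16.4, 6.91, 12.6 and 10.7 CPM at 12 months. MiR-216a was at 14.4, 10.8, 89.4, 19.1 and 5.65 CPM at 24 months and at 12.4, 14.1, 10.7, 13.0 and 14.7 CPM at 12 months. The other 4 libraries of 24 months overlapped those of 12 months in both, and without replicate 3 the differences were -0.13 for miR-217 and -0.04 for miR-216a, against 1.36 and 1.08 with it. MiR-459 was at 45.4, 5.54, 448.8, 56.2 and 13.9 CPM at 24 months and at 17.02, 41.9, 16.9, 35.1 and 9.48 CPM at 12 months. Its difference was 2.23 ± 0.79 (adjusted p = 0.259), and 0.33 without replicate 3.

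Over the liver and gut list, 6 of 7 names were tested and 0 passed, with a median difference of 1.46 against 0.00 over all names. All 6 estimates were positive in the fit of all 25 libraries, while 3 were positive and 3 negative without 24 months replicate 3. The median was 0.20 without 24 months replicate 3. The summed level of the list was 2607 to 39191 CPM at 24 months, 1804 to 4774 CPM at 12 months and 1179.9 to 5306 CPM at 6 months. Libraries of 24 months other than replicate 3 reached at most 7242 CPM. The names of liver, gut and pancreas are markers of organs outside skin, and their part in other differences of that library was not tested.

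**Figure D2:**
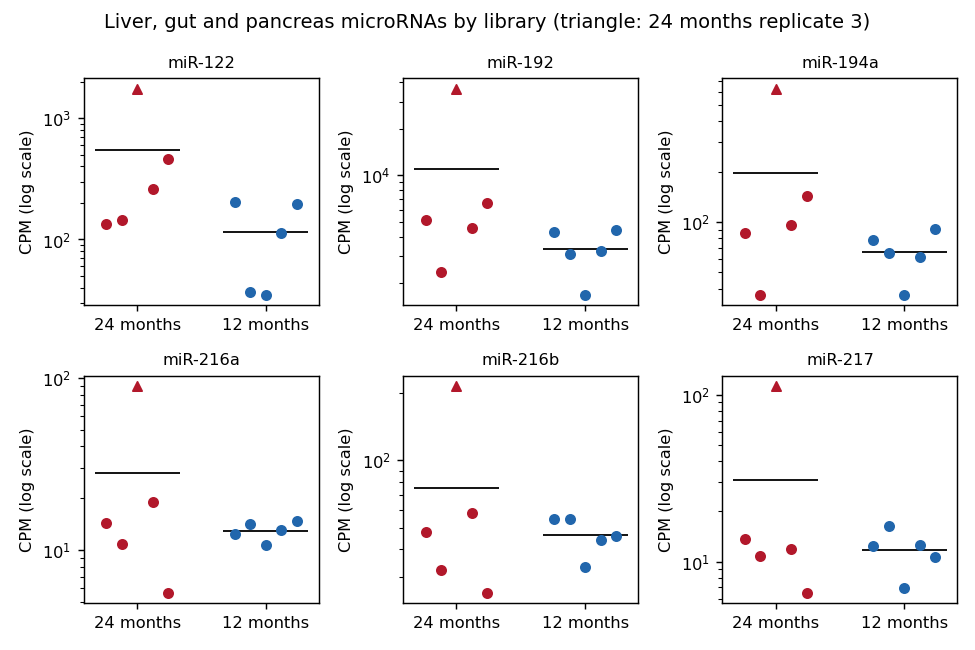
Level of 6 liver, gut and pancreas microRNAs in each library of 24 months (red) and 12 months (blue), in CPM on a log y axis, with the mean of each age as a line. The triangle, 24 months replicate 3, is the highest point in every panel, at 36401 CPM for miR-192.

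MiR-210, which is induced by hypoxia, was the name of smallest p on the higher side whose levels did not overlap. It was at 679, 619, 567, 707 and 813 CPM at 24 months and at 509, 300.4, 405, 513 and 411 CPM at 12 months. All 5 libraries of 24 months lay above all 5 of 12 months, as they did in 3 of 190 names (1.58%), with a difference of 0.66 ± 0.22 (SE, 95% interval 0.20 to 1.12, adjusted p = 0.259). The estimate was 0.72 without replicate 3, and over 22 other settings it ranged from 0.52 to 0.74 and was called in 0 (adjusted p from 0.0825 to 0.425). At 6 months its mean was 407 ± 97.3 CPM (SD, n = 5), close to the 428 ± 88.0 CPM of 12 months, against 677 ± 93.01 CPM at 24 months. MiR-101b, at 239.6, 195.1, 569.7, 220.3 and 201 CPM at 24 months and 165, 207.5, 174, 190.02 and 198 CPM at 12 months, had a difference of 0.61 ± 0.22 (adjusted p = 0.259) that was 0.19 without replicate 3.

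**Figure D3:**
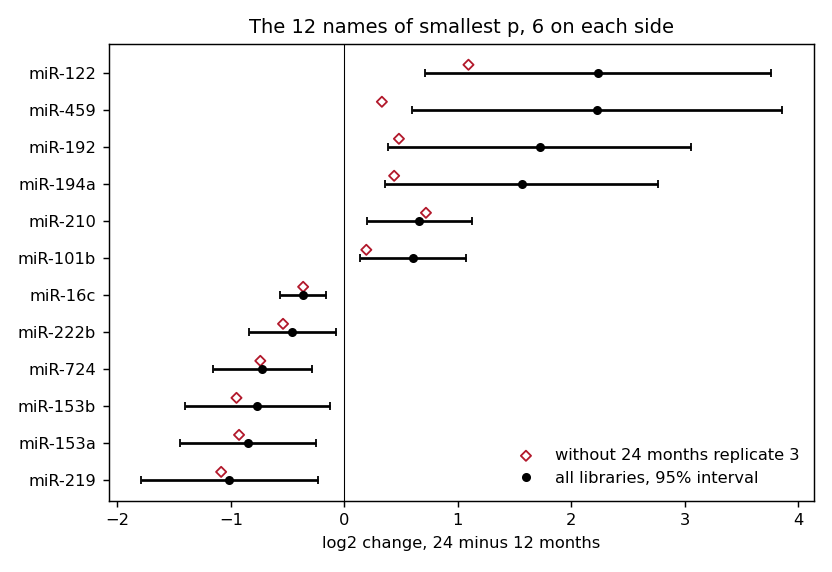
Log2 difference, 24 minus 12 months, of the 12 names with the smallest p, 6 on each side, with its 95% interval (black) and the estimate without 24 months replicate 3 (red diamonds, edgeR fit of the other 24 libraries). Leaving out that library brought miR-122, miR-459, miR-192, miR-194a and miR-101b closer to 0 and left miR-210, miR-16c and miR-724 near their full estimates.

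On the lower side, miR-16c had the smallest p of all names. MiR-15 and miR-16 share a seed and are known to hold back the cell cycle and BCL2. MiR-16c was at 979, 1226, 1100.1, 1127 and 1116 CPM at 24 months and at 1293, 1545, 1466, 1344 and 1500.2 CPM at 12 months. All 5 libraries of 24 months lay below all 5 of 12 months, as they did in 7 of 190 names (3.68%), and the difference was -0.37 ± 0.10 (SE, 95% interval -0.57 to -0.17, adjusted p = 0.186). It was called in 5 of 22 other settings: with DESeq2, with only 6, 12 and 24 months in the fit, and without 12 months replicate 1, 24 months replicate 2 or 24 months replicate 5 (adjusted p = 0.00717, 0.0251 and 0.0488). Over all 22 settings the adjusted p ranged from 0.00717 to 0.425, and the difference from -0.51 to -0.32. MiR-15a, of which 1 of 2 copies is a genomic neighbour of miR-16c, had a difference of -0.23 ± 0.11 with its copies summed (adjusted p = 0.328). In the miR-15/16 list 7 of 8 tested names had a negative estimate, against 94 of 190 over all names, and 0 passed. The median of the list was -0.16. Against 6 months, miR-16c was at 1109.6 ± 87.9 CPM at 24 months and 1519 ± 121 CPM at 6 months (SD, n = 5 each), a difference of -0.45 ± 0.10 (adjusted p = 0.00401).

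MiR-724 was at 159, 255, 226, 172 and 266 CPM at 24 months and at 432, 273, 242, 416 and 416 CPM at 12 months. The ranges overlapped, with replicates 3 and 2 of 12 months inside or just above the 24-month range, and the difference was -0.72 ± 0.21 (SE, adjusted p = 0.218). It was called with only 6, 12 and 24 months in the fit (adjusted p = 0.0456), without 24 months replicate 5 (0.0488) and without 12 months replicate 3 (0.0408). MiR-222b, of a family that acts on the cell-cycle inhibitor p27 in mammals, was at 182.8, 187, 234, 181.2 and 170.4 CPM at 24 months and at 259, 229, 211.03, 268 and 344 CPM at 12 months. Replicate 3 was the only library of 24 months inside the 12-month range, and the difference was -0.46 ± 0.19 (adjusted p = 0.325). It passed with only 6, 12 and 24 months in the fit (difference -0.53, adjusted p = 0.0456). Its relative miR-222a had an estimate of the opposite sign, 0.41 ± 0.19 (adjusted p = 0.332).

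Neural microRNAs were lower at 24 than at 12 months in 4 names whose ranges did not overlap, of 12 tested, and none passed. Over all names 7 of 190 (3.68%) lay below in this way. MiR-9, known from neural progenitors and neurons, was at 168, 195.1, 154.7, 140.5 and 179.5 CPM at 24 months and at 298, 210.3, 275, 367 and 566 CPM at 12 months. MiR-124, the typical microRNA of neurons, was at 35.7, 35.4, 32.0, 30.3 and 26.95 CPM at 24 months and at 45.4, 44.6, 45.3, 80.7 and 116 CPM at 12 months. The 5 libraries of 24 months were tightly grouped in both and each lay below every library of 12 months, where replicate 5 was the highest. The differences were -1.04 ± 0.47 for miR-9 (adjusted p = 0.328) and -1.05 ± 0.75 for miR-124 (adjusted p = 0.562).

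MiR-129 was at 12.1, 15.3, 13.4, 16.7 and 18.3 CPM at 24 months and at 59.8, 19.2, 19.6, 21.2 and 47.6 CPM at 12 months, with a difference of -1.14 ± 0.58 (SE, adjusted p = 0.366). MiR-219, known from oligodendrocytes, was at 8.34, 10.3, 10.7, 5.97 and 8.69 CPM at 24 months and at 24.8, 14.1, 14.6, 16.3 and 19.1 CPM at 12 months, with a difference of -1.01 ± 0.38 (adjusted p = 0.259). In both, replicate 1 of 12 months was the highest of the 10 libraries, and no library of 24 months reached the 12-month range. MiR-153a and miR-153b, also of neurons, had overlapping ranges and differences of -0.84 ± 0.29 and -0.77 ± 0.31 (adjusted p = 0.259 and 0.325).

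Over the neural list 9 of 12 tested names had a negative estimate, against 94 of 190 over all names. The median was -0.67 against 0.00 over all names, and leaving out each library in turn gave medians from -0.83 to -0.51. The most abundant member, miR-128, was at 1503 ± 394 CPM at 24 months and 1472 ± 327 CPM at 12 months, with a difference of 0.03 ± 0.16. The list summed to 1495 to 2396 CPM at 24 months and 1704 to 2703 CPM at 12 months, a sum that miR-128 dominates. MiR-9 and miR-124 are defining names of neural tissue, and how much of it each skin sample held was not tested.

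Between 24 and 12 months the strain label moved with these levels, and the other ages can be set beside it. MiR-9 averaged 144.5 ± 52.7 CPM at 6 months, 343 ± 136 at 12, 168 ± 21.2 at 24, 297 ± 95.3 at 36 and 363.3 ± 435 at 42 months (SD, n = 5 each), of which 6 and 24 months have no transgene in the label. MiR-124 averaged 16.5 ± 3.61 CPM at 6 months, 66.5 ± 31.9 at 12, 32.1 ± 3.65 at 24, 54.7 ± 20.8 at 36 and 168 ± 325 at 42 months. The 42-month means rest on replicate 5, with 1136 CPM of miR-9 and 749 CPM of miR-124, while the other 4 libraries of 42 months held 90.1 to 217.5 CPM of miR-9 and 10.02 to 31.2 CPM of miR-124. For miR-9 those 4, labelled Tg(wt1a:GFP), ran from below the 24-month range to inside the 12-month range. For miR-124 they lay within or below the 24-month range. The transgenes of 12, 36 and 42 months differ, and an effect of any of them was not tested. Replicate 5 of 42 months, like the other libraries of 36 and 42 months, enters the estimate of the spread in the fit of all ages. No fit left out that library alone, so its effect was not tested. With only 6, 12 and 24 months in the fit, miR-9, a sum of 7 hairpins, and miR-124, a sum of 6, were called lower at 24 than at 12 months (differences -1.10 ± 0.28 and -1.13 ± 0.27, adjusted p = 0.0456 for both). MiR-129 missed the threshold there (adjusted p = 0.0671), as did miR-219 (adjusted p = 0.0919). With only the 24- and 12-month libraries in the fit 0 names were called, and 0 also with 6, 12 and 24 months but without 24 months replicate 3.

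**Figure D4:**
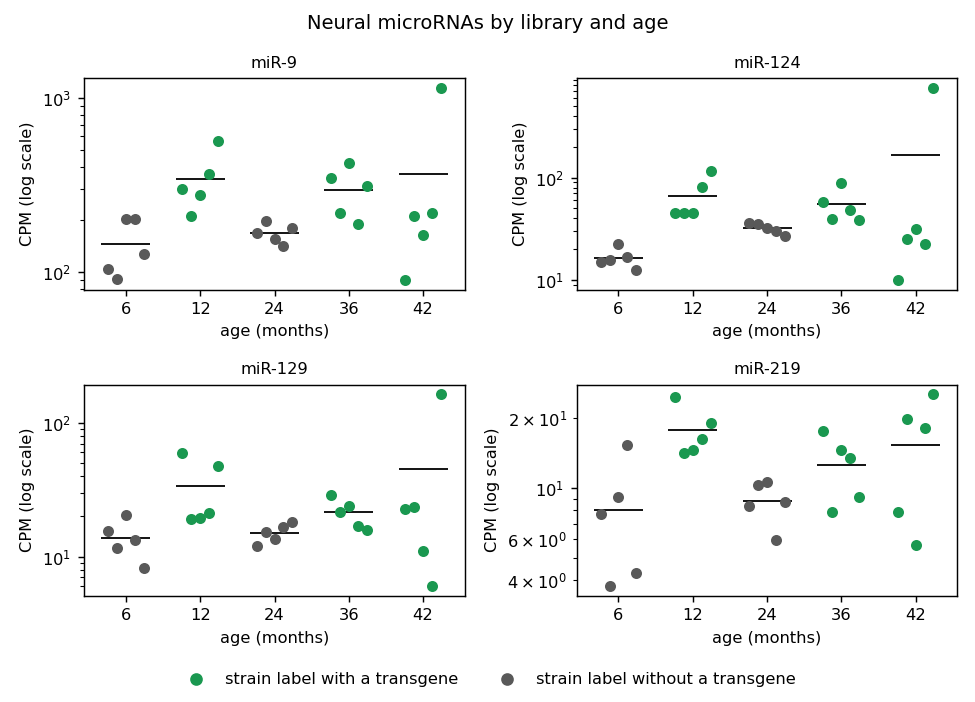
Level of 4 neural microRNAs by library at the 5 ages, in CPM on a log y axis, with the mean of each age as a line. Points are green where the strain label names a transgene (12, 36 and 42 months) and grey where it does not (6 and 24 months). The transgene differs between 12, 36 and 42 months. Every 12-month point lies above every 24-month point in all 4 panels.

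In all, the CPM ranges of the 2 ages did not overlap for 10 of 190 names. The 24-month libraries lay above in miR-210, miR-21 and miR-2185. They lay below in miR-16c, miR-219, miR-9, miR-93, miR-460, miR-129 and miR-124. MiR-93, of the proliferation-linked miR-17 family, was at 116, 106.7, 106.1, 116 and 116 CPM at 24 months and 158, 127, 131.6, 129.5 and 131 CPM at 12 months, a difference of -0.27 ± 0.13 (SE, adjusted p = 0.342). MiR-460 was at 361, 428, 422, 304 and 417 CPM at 24 months and 522, 464, 459, 439.6 and 505 CPM at 12 months, a difference of -0.31 ± 0.15 (adjusted p = 0.356). In both, the highest library of 24 months and the lowest of 12 months lay close together.

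Among inflammation microRNAs, miR-21, raised in inflamed and healing tissue of many kinds, was at 71222, 113014, 81291, 63794 and 74725 CPM at 24 months and at 49059, 57949, 58832, 48365 and 57439 CPM at 12 months. Every library of 24 months lay above every library of 12 months, with replicate 2 the highest. The difference was 0.57 ± 0.25 (SE, 95% interval 0.06 to 1.09, adjusted p = 0.328), and 0 of 22 other settings called it. MiR-146a, which dampens innate immune signals, was at 2498, 2593, 6673, 2402 and 2372 CPM at 24 months and 1514, 2204, 1945, 2575 and 2386 CPM at 12 months. Apart from replicate 3 the 24-month libraries lay at the upper end of the 12-month range, and the difference was 0.64 ± 0.32 (adjusted p = 0.356), or 0.21 without that library. MiR-146b differed by 0.04 ± 0.53 and miR-155 by -0.35 ± 0.36 (adjusted p = 0.985 and 0.72). The list had 0 of 4 calls and a median of 0.30, which was -0.00356 without 24 months replicate 3.

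Leukocyte microRNAs showed no call either, with 0 of 4 and a median of -0.05, or -0.11 without 24 months replicate 3. MiR-223, of neutrophils and macrophages, was at 86.0, 103.5, 141.7, 125.3 and 155.2 CPM at 24 months and 118, 83.5, 67.1, 66.3 and 78.5 CPM at 12 months. Replicate 1 of 12 months lay among the 24-month libraries and the other 4 of 12 months lay below them, with a difference of 0.57 ± 0.35 (SE, adjusted p = 0.453). MiR-142a, found in all blood lineages, was at 1867 ± 506 CPM at 24 months and 2075 ± 324 CPM at 12 months (SD, n = 5 each). Of the erythroid pair, miR-451 was at 1097, 1031, 4921, 2717 and 993 CPM at 24 months and 985, 2359, 1596, 1176 and 1604 CPM at 12 months. Its difference of 0.48 ± 0.38 was -0.08 without 24 months replicate 3, which was the highest library, and the median of the pair was 0.10 with that library and -0.46 without it.

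MiR-126 is typical of endothelium, where the flk promoter of the 12-month label is active, and a link between its level and the transgene was not tested. MiR-126a was at 5943, 4981, 5500.4, 6019 and 3243 CPM at 24 months and at 2355, 3462, 3553, 4315 and 4938 CPM at 12 months. Of the 24-month libraries, 4 lay above every library of 12 months and replicate 5 lay among them, and the difference was 0.46 ± 0.21 (SE, 95% interval 0.03 to 0.90, adjusted p = 0.328). MiR-126b had a difference of 0.42 ± 0.24 (adjusted p = 0.419), so that 0 of 2 endothelial names passed. At 6 months miR-126a was at 3649.6 ± 756 CPM (SD, n = 5).

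The 10 most abundant names took 60.6% ± 2.95 of counts at 24 months and 61.0% ± 1.92 at 12 months (SD, n = 5 each, exact permutation p = 0.817). MiR-10b, encoded within Hox clusters, led with 123619 ± 25195 CPM at 24 months and 109493 ± 26192 CPM at 12 months, a difference of 0.18 ± 0.18 (SE). MiR-181a, known from lymphocyte development, was at 65168, 122352, 68005, 75057 and 130082 CPM at 24 months and 173712, 123337, 111928, 87129.7 and 100676 CPM at 12 months, with overlapping ranges and a difference of -0.37 ± 0.22 (adjusted p = 0.43). Let-7a, a microRNA of differentiated cells, differed by -0.08 ± 0.13, and its 95% interval of -0.36 to 0.19 bounds the difference well within 2-fold.

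Among other abundant names the interval was wider for miR-205 (-0.97 to 0.62), miR-21 (0.06 to 1.09), miR-181a (-0.82 to 0.07) and miR-2184 (-0.08 to 0.80). The intervals of miR-26a, miR-26b, miR-22a and miR-204 were narrow. They ran from -0.10 to 0.43 for miR-26a, from -0.06 to 0.44 for miR-26b, from -0.21 to 0.43 for miR-22a and from -0.24 to 0.43 for miR-204, known from the retinal pigment epithelium. MiR-2184 was at 43907, 37942, 38569, 40814 and 21106 CPM at 24 months and 18933, 32729.9, 33719.7, 31333 and 25706 CPM at 12 months, with a difference of 0.36 ± 0.21 (SE, adjusted p = 0.432). In it replicate 5 of 24 months lay below most libraries of 12 months and the other 4 lay above all of them.

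Some microRNAs that passed the test against 6 months had estimates near 0 between 24 and 12 months. MiR-31, a microRNA of keratinocytes and wound edges in mammals, was at 123, 233, 161, 149.9 and 185 CPM at 24 months and 95.4, 187, 161, 172 and 136 CPM at 12 months. The difference was 0.18 ± 0.25 (SE, 95% interval -0.33 to 0.70), while against 6 months (46.7 CPM) it was 1.87 ± 0.26 (adjusted p = 4.34e-05) at 24 and 1.69 ± 0.26 (adjusted p = 0.000201) at 12 months. MiR-132 and miR-212, a pair best studied in neurons, had differences of 0.09 ± 0.23 and -0.04 ± 0.19 between 24 and 12 months, with 95% intervals of -0.37 to 0.56 and -0.44 to 0.35. Against 6 months miR-132 differed by 1.01 ± 0.23 (adjusted p = 0.0046) at 24 and by 0.92 ± 0.23 (adjusted p = 0.0352) at 12 months.

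MiR-1388 differed by 0.02 ± 0.25 between 24 and 12 months (SE), against -0.81 ± 0.25 (adjusted p = 0.0236) at 24 and -0.83 ± 0.25 (adjusted p = 0.0974) at 12 months when set against 6 months. The cartilage-linked miR-455 was at 383, 365, 400.2, 572 and 511 CPM at 24 months and 689, 416, 522, 560.3 and 493 CPM at 12 months, with overlapping ranges and a difference of -0.26 ± 0.19 (adjusted p = 0.56). The cluster of miR-462 and miR-731, induced by interferon in fish, had differences of -0.29 ± 0.27 and -0.43 ± 0.25 (adjusted p = 0.682 and 0.43). Against 6 months miR-462 differed by -1.09 ± 0.27 (adjusted p = 0.00743) at 24 and by -0.80 ± 0.27 (adjusted p = 0.114) at 12 months. MiR-462 averaged 25549 ± 11121 CPM at 24 months and 31321 ± 11484 CPM at 12 months (SD, n = 5 each). MiR-181b was at 2086, 5122, 2661, 2471 and 5134 CPM at 24 months and 9468, 4684, 4669.9, 3271 and 4859 CPM at 12 months, with overlapping ranges and a difference of -0.63 ± 0.27 (adjusted p = 0.328).

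In the main fit none of the 33 lists held a call in either direction, on names or on hairpins. The early-embryo miR-430 family, 1 of these lists, had 0 of 4 names tested. Beside the neural and the liver and gut lists, list medians lay between -0.37 (miR-181, 0 of 3 names) and 0.66 (miR-210 alone), against 0.00 over all names. Of the epidermal names, 9 of 10 had a negative estimate, miR-31 being the exception, against 94 of 190 over all names. Their median was -0.16, and 0 of them had an unadjusted p under 0.05 in the edgeR fit. In the sensory miR-183 cluster all 3 estimates were negative with a median of -0.26, led by miR-182 (-0.33 ± 0.23). The family of miR-103 and miR-107, which acts on metabolism in mammals, had a median of -0.33, with -0.33 ± 0.21 for miR-107a (SE). The let-7 names had a median of -0.09 over 10 names.

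The 4 mesenchymal names had a median of 0.19, with miR-199 at 19703 ± 2656 CPM at 24 months and 17362 ± 2415 CPM at 12 months (SD, n = 5 each). The miR-29 family, which acts on collagen messages, had a median of 0.24 over 2 names with all libraries and of -0.07 without 24 months replicate 3, and miR-29a differed by 0.22 ± 0.16 (SE). The list around miR-100 had a median of 0.17 over 5 names, led by miR-100 with 0.29 ± 0.15 (adjusted p = 0.366). In the miR-23/24/27 list 0 of 8 names passed, with a median of 0.10 and a summed level of 26445 to 30655 CPM at 24 months and 26415 to 30679 CPM at 12 months. Its most abundant member, miR-27b, differed by -0.13 ± 0.10, and miR-23a by 0.27 ± 0.12 (adjusted p = 0.328).

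The skeletal muscle list, led by miR-133a with -0.15 ± 0.32 (SE), had a median of -0.06 over 6 names, or -0.16 without 24 months replicate 3. The miR-17-92 list, led by miR-92a with 0.19 ± 0.22, had a median of 0.03 over 15 names, or -0.03 without that library. The p53-induced miR-34a was the 1 tested name of its list, at 28.7, 24.6, 18.99, 17.7 and 24.8 CPM at 24 months and 17.5, 15.4, 13.8, 20.002 and 14.5 CPM at 12 months. The lower libraries of 24 months lay within the 12-month range, and the difference was 0.50 ± 0.42 (adjusted p = 0.629). In the list of miR-130, miR-301 and miR-454, 6 of 8 names had a negative estimate, against 94 of 190 over all names. The median was -0.18, while the most abundant member of the list, miR-130c, had a positive estimate, 0.12 ± 0.12. The leading members of another 4 lists had differences of 0.16 ± 0.25 (miR-30d), -0.20 ± 0.16 (miR-148), 0.29 ± 0.21 (miR-101a) and -0.18 ± 0.30 (miR-140), and 0 of these passed.

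**Figure D5:**
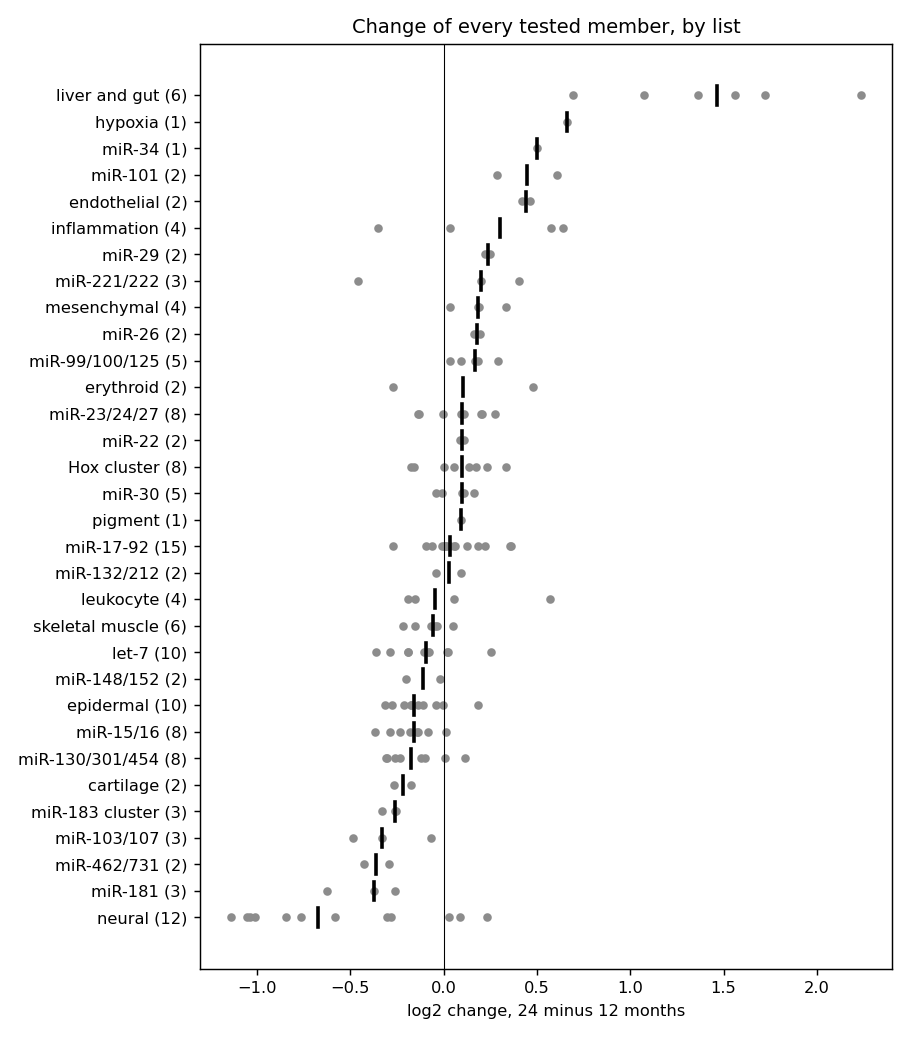
Log2 difference, 24 minus 12 months, of every tested name (grey points) in 32 lists, with the number of tested names in brackets and the list median as a black bar. The liver and gut list has the highest median, 1.46, which was 0.20 without 24 months replicate 3, and the neural list the lowest, -0.67.

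Some microRNAs varied so much between libraries of 1 age that no difference could be bounded. MiR-725 had the largest SE, with a difference of 0.00 ± 1.14 and levels of 2681, 9197, 10210.2, 2758 and 2845 CPM at 24 months and 3040.2, 51.0, 6659.7, 7066 and 10851 CPM at 12 months. Replicate 2 of 12 months was the lowest of these 10 libraries by a wide margin. MiR-738 was at 175, 29.8, 1657, 144.2 and 607 CPM at 24 months and 194.5, 66.8, 1051, 43.0 and 105.5 CPM at 12 months, with 1 high library at each age, replicate 3 in both. Its difference was 0.84 ± 1.07 (SE), and -0.29 ± 1.08 without 24 months replicate 3. MiR-2185 was at 165, 131, 165, 145.7 and 217.4 CPM at 24 months and 12.9, 2.14, 119, 75.1 and 123 CPM at 12 months, a difference of 1.304 ± 0.82 (SE, adjusted p = 0.456). Its 24-month libraries lay close together, while replicates 1 and 2 of 12 months were low, and its levels at 6 months averaged 257 CPM. The 27 names that were not tested held at most 27 counts in any library of the 2 ages, and 10 of them had no count in these 10 libraries.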

How the data were processed

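Skin small RNA was sequenced from male zebrafish, with libraries made from total RNA with a small-RNA kit, per the labels' protocols. Tools named, per the submitters' processing notes, are Trimmomatic 0.36, SAMtools 1.3.1-9, CASAVA 1.8.4 and BWA 0.7.12-r1039, with no stated role. The counting step, hairpin set and build were not given in the sources used here. Raw read counts were deposited by the authors for 346 hairpins, of which 38 had no count in the 25 libraries. Columns were matched to samples by title.

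Counts were fitted in R 4.3.3 with edgeR 4.0.16 (TMM scaling, filterByExpr with a minimum count of 10, quasi-likelihood F test) on all 25 libraries, so that 5 ages share the spread. Benjamini-Hochberg adjustment ran over 258 hairpins or 190 names, at a threshold of 0.05. Standard errors come from the log2 change and its F statistic. The test was checked on simulated data with changes of 2-fold and more. A minimum share of calls was required only for the larger changes, so that check does not cover differences of 2-fold or less. Genomic neighbours (within 10 kb) were read from the RefSeq table of assembly GRCz12tu, in which 340 hairpins matched by name. It gave no sequences, and none are shown.

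The members and 33 lists were chosen with earlier results of these data known. The text names the 6 names of smallest p on each side, the 10 of highest mean CPM and the most abundant name of each list. Other names were chosen after their values were seen. Alternatives were other scalings and filters, DESeq2 1.42.0, limma-voom (limma 3.58.1), robust estimation, fewer ages in the fit and each library left out.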

Additional observations from a re-analysis of the deposited data

Results flagged for a closer look

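In groups of 5 libraries, a library was singled out where its gap to the nearest other library was more than 0.71 of the whole range of its age. The 92 groups looked at gave 12 such values. The cut corresponds to about 1 in 20 groups for normally distributed values in independent groups. These groups share libraries and some names were chosen by their p, so an excess over that rate was not tested. At 24 months, replicate 3 was far above the others in miR-122 (1746 CPM, next 457.3), miR-192 (36401, next 6602), miR-194a (626, next 143.5), miR-459 (448.8, next 56.2), miR-101b (569.7, next 239.6) and miR-222b (234, next 187). In the same library the 10 most abundant names took 55.5% of counts, below the next lowest library of 24 months with 61.2%. Replicate 5 of 24 months was low in miR-2184 (21106 CPM, next 37942) and high in miR-30d (13006, next 7644). Replicate 2 of 24 months was low in miR-133a (4159 CPM, next 9483). At 12 months, replicate 1 was high in miR-30d (11382 CPM, next 6256) and miR-92a (43793, next 27071).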

How the results depend on the processing

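EdgeR called 0 hairpins in either direction in every setting run, and DESeq2 and limma-voom also 0. For names the higher calls were 0 except with DESeq2 (1, miR-122). The lower calls were 0 except with DESeq2 (1, miR-16c), with only 6, 12 and 24 months in the fit (5: miR-16c, miR-724, miR-124, miR-222b and miR-9) and without some libraries. Leaving out each library in turn gave 0 to 2 lower calls, from miR-16c and miR-724 (1 each without 24 months replicate 2, 12 months replicate 1 or 12 months replicate 3, and 2 without 24 months replicate 5). The cause was not tested. In the main fit of all 25 libraries, edgeR also called 0 names and 0 hairpins at an adjusted p of 0.01 or 0.1. This did not hold in every other setting. Without 12 months replicate 1 the smallest edgeR adjusted p was 0.00717 for names and 0.0574 for hairpins. Leaving out libraries in turn, the difference in mean total counts (24 minus 12 months) ran from -627129 to 124618, in hairpins with at least 10 counts from -2.80 to 0.70, and in the share of the 10 most abundant names from -1.05 to 0.85 percentage points. No paired analysis was possible because the replicate numbers were given in record order and pair no libraries.

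Of the 43 names fixed by the naming rule, 9 switched sign when 1 library was left out: miR-204 (-0.083 to 0.19), miR-22a (-0.057 to 0.18), miR-92a (-0.088 to 0.30), miR-451 (-0.081 to 0.68), miR-140 (-0.37 to 0.087), miR-128 (-0.16 to 0.13), miR-132 (-0.027 to 0.18), miR-30d (-0.14 to 0.28) and miR-130c (-0.011 to 0.19). MiR-128 was also negative with library size alone (-0.055), with names under a mean CPM of 100 left out (-0.019) and with only 6, 12 and 24 months (-0.035). MiR-451 was negative in both fits to fewer ages without 24 months replicate 3 (-0.081), settings added after the data were seen. Outside those 43, miR-217, miR-216a, miR-216b, miR-29b and miR-146b are among the names that were negative without 24 months replicate 3 and positive with it. With limma-voom the median of the liver and gut list was 0.64.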
